A study of Mus musculus with 7 samples.

Results

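Receptors that guide B lineage cells through the spleen, lymph nodes and bone marrow were followed across naive B cells, plasmablasts and plasma cells. The set held 10 genes: Cxcr5, Ccr7, Gpr183, Ccr6, Cxcr4, Cxcr3, Ccr9, Ccr10, S1pr1 and Ccr2. Every array probe whose gene symbol, or current name by Entrez number, was one of these was taken, which gave 13 of the 25697 probes. Of these, 9 probes of 6 genes were above background on at least 2 arrays and were tested, and 4 probes of 4 genes were above background on none. The expression levels came from sorted spleen cells of C57Bl/6J mice, hybridised to single-colour Illumina bead arrays. There were 2 plasma cell samples (B220low CD138+), 3 plasmablast samples (B220mid CD138+) and 2 naive B cell samples (B220+ CD43-). Plasma cells and plasmablasts came from mice at day 3 after lipopolysaccharide (LPS), the bacterial cell wall component that activates B cells through Toll-like receptor 4. Naive B cells came from naive mice, and all animals were labelled female and 10 weeks old. The labels number the replicates without saying whether each was a separate mouse, so each p-value reflects only how much these samples varied, which may be technical.

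Chemokine receptors are G protein-coupled receptors that signal mainly through Gi proteins and steer a cell along a gradient of its chemokine. In the spleen, naive B cells are drawn into follicles by CXCL13 acting on CXCR5. CCR7 and GPR183, also known as EBI2, pull activated B cells to the T zone border and the outer follicle. Antibody-secreting cells leave the follicle, and they respond to CXCL12, the ligand of CXCR4, in the red pulp and the bone marrow. CXCR3 serves entry into inflamed tissue, CCR6, CCR9 and CCR10 serve mucosal sites, S1PR1 serves exit into blood and CCR2 serves the release of monocytes from bone marrow.

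The identity of the sorted cells was checked first. Sdc1, which encodes CD138, averaged 9.65 ± 0.26 log2 units in plasma cells (SD, n = 2) and 9.61 ± 0.15 in plasmablasts (n = 3), against 5.81 ± 0.09 in naive B cells (n = 2), where it was below background. Spn, which encodes CD43, was above background on both naive B cell arrays, at 6.95 ± 0.12. Pax5, the B cell identity factor, was above background on no array. Some markers ran against the plasma cell label, or at the RNA level against the order of the gate. Prdm1, the plasma cell factor gene, averaged 7.36 ± 0.25 in plasma cells and 9.02 ± 0.15 in plasmablasts (3.16-fold lower, adjusted p = 1.50e-05), and Irf4 was 2.65-fold lower. Prdm1 was below background in naive B cells, at 5.02 ± 0.14. Tnfrsf17 averaged 11.49 ± 0.12 in plasma cells, 11.77 ± 0.21 in plasmablasts and 5.55 ± 0.21 in naive B cells. Jchain averaged 8.93 ± 0.06, 9.49 ± 0.46 and 4.95 ± 0.10 in the same order. Neither was called between plasma cells and plasmablasts (limma, adjusted p = 0.121 and 0.0522). Of 13 tested sort and identity markers, 7 were lower and 2 higher in plasma cells than in plasmablasts. All tested probes gave 46.3% and 27.9%. Ptprc, whose product carries B220, averaged 9.78 ± 0.19 in the B220low plasma cells and 8.90 ± 0.27 in the B220mid plasmablasts (1.85-fold higher, adjusted p = 0.00113). The gate read B220 on the surface and the array reads Ptprc RNA, so this difference is no test of the gate. The naive B cell arrays went against their sex label. The Y-linked gene Eif2s3y stood at 11.34 ± 0.21 there and below background on the other 5 arrays, and the Y-linked gene Kdm5d likewise, at 8.43 ± 0.18. Uty, also Y-linked, was above background on all 7 arrays, at 6.29 ± 0.02 in plasma cells, 6.84 ± 0.27 in plasmablasts and 7.23 ± 0.16 in naive B cells. Xist, made from the inactive X chromosome, averaged 9.59 ± 0.25 in plasma cells and 10.30 ± 0.04 in plasmablasts, and both naive arrays read background. Sex and population therefore cannot be told apart in any comparison with naive B cells. The comparison of plasma cells with plasmablasts uses the naive B cell arrays in the normalization, the choice of tested probes and the shared estimate of spread. In a fit without them, all 9 tested receptor probes were still called lower in plasma cells than in plasmablasts. That fit kept the normalization and the probe choice over all 7 arrays. Markers of other cells also differed between the groups. Summed over 13 monocyte and macrophage markers, background-corrected signal was 50100 to 50400 in plasma cells and 1090 to 1950 in plasmablasts, against 31100 to 36900 in naive B cells. Over 12 neutrophil markers the sums were 10000 to 12400, 1590 to 5990 and 263 to 346 in the same order of groups. Over 14 T and NK cell markers they were 4240 to 4310, 1220 to 1920 and 1160 to 1190, and over 6 red cell and platelet markers 147 to 202, 144 to 158 and 25400 to 35000. Such sums are led by the brightest genes. Lyz2 was the brightest monocyte and macrophage marker in plasma cells, at 15.33 ± 0.01. In naive B cells Klrd1, at 9.61 ± 0.09, was the only 1 of the 14 T and NK cell markers above background on every array. In sorted bulk samples of this kind, fewer cells that make a transcript and less transcript per cell cannot be told apart.

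Of the 6 receptor genes that could be tested, 5 stood lower in plasmablasts than in naive B cells and lower again in plasma cells: Cxcr5, Ccr7, Gpr183, Ccr6 and Cxcr4. The sixth, Cxcr3, rose in plasmablasts and was below background in the other populations. All 9 tested probes were called in each of the 3 comparisons (limma, Benjamini-Hochberg adjusted p under 0.05 over 10113 probes). That count by itself says little, because limma called 72.0% of all tested probes when plasmablasts were set against naive B cells, 70.4% for plasma cells against naive B cells, and 74.2% for plasma cells against plasmablasts. The arrays of the groups did not overlap on any of the 9 probes, which was also true of 82.1%, 85.5% and 82.4% of all tested probes in those comparisons. The direction and the size were less common. In plasmablasts against naive B cells, 8 of 9 receptor probes were lower, where 36.5% of all probes were, and 1 was higher, where 35.5% were. By at least 2-fold, 7 of 9 were lower, against 16.9% of all probes. For plasma cells against naive B cells the same 8 and 1 probes stood beside 37.4% lower and 33.0% higher among all probes, and 8 of 9 were lower by at least 2-fold, against 14.3%. Set against plasmablasts, plasma cells had 9 of 9 receptor probes lower and 0 higher, beside 46.3% and 27.9% of all probes, and 8 of 9 lower by at least 2-fold, beside 12.8%. With cyclic loess in place of quantile normalization the share of calls that were higher over the whole array was 57.1% instead of 46.8% for plasma cells against naive B cells, and 51.8% instead of 37.6% against plasmablasts, and the receptor probes kept their directions. Probes pass the filter through the group where they are high, and several probes share a gene, so these counts describe the set and are no test of it.

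**Figure D1:**
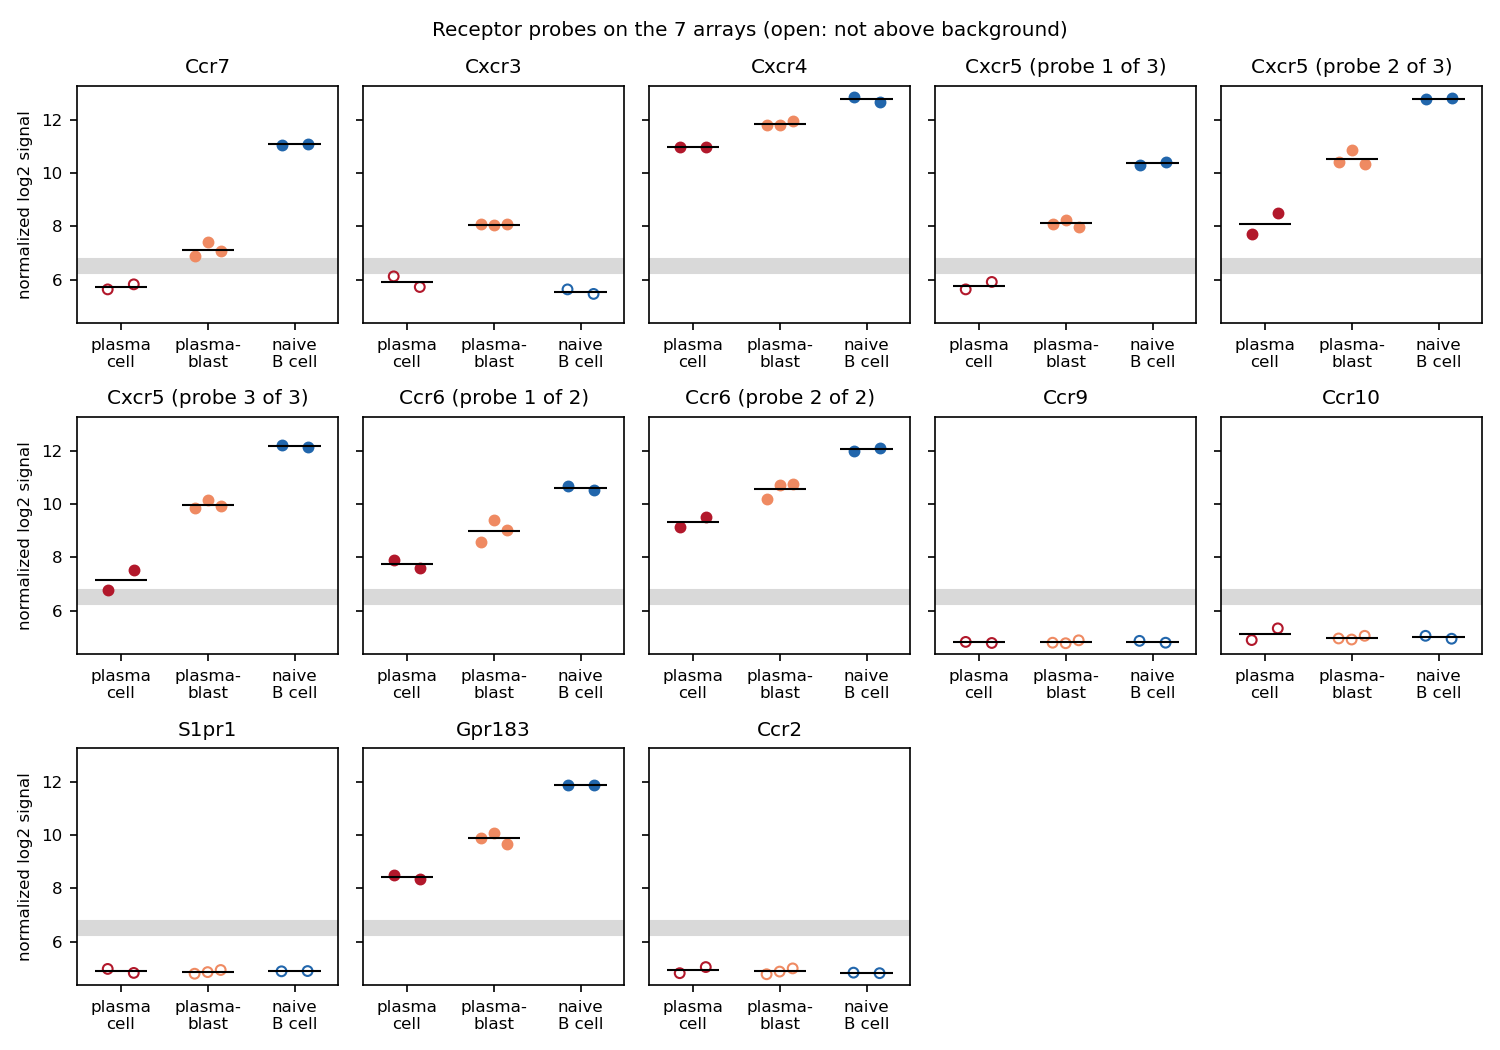
Normalized log2 signal of each of the 13 receptor probes on each of the 7 arrays, with plasma cells, plasmablasts and naive B cells from left to right. Filled points were above background (detection p under 0.01), open points were not, bars are group means, and the grey band spans the lowest signal above background on the 7 arrays (6.26 to 6.77). Points of Cxcr5, Ccr7, Gpr183, Ccr6 and Cxcr4 are lowest in plasma cells, intermediate in plasmablasts and highest in naive B cells, Cxcr3 is filled only in plasmablasts, and Ccr9, Ccr10, S1pr1 and Ccr2 are open throughout.

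Cxcr5, the receptor that holds B cells in the follicle, was measured by 3 probes. On the brightest, the signal was 7.70 and 8.50 log2 units on the plasma cell arrays, 10.42, 10.88 and 10.36 on the plasmablast arrays, and 12.79 and 12.82 on the naive B cell arrays. The groups did not overlap, and the plasma cell arrays were further apart than those of the other groups. Cxcr5 was 26.1-fold lower in plasma cells than in naive B cells (log2 difference -4.71, 95% interval -5.30 to -4.11, adjusted p = 1.20e-06). In plasmablasts it was 4.76-fold lower than in naive B cells (log2 difference -2.25, -2.80 to -1.71, adjusted p = 4.36e-05). The step between plasma cells and plasmablasts was a further 5.48-fold (log2 difference -2.45, -3.00 to -1.91, adjusted p = 3.25e-05).

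The other two Cxcr5 probes gave the same order. One had 6.77 and 7.53 in plasma cells, 9.85, 10.15 and 9.95 in plasmablasts and 12.25 and 12.17 in naive B cells, so that Cxcr5 was 33.3-fold lower in plasma cells and 4.68-fold lower in plasmablasts than in naive B cells. The dimmest had 5.63 and 5.91 in plasma cells, neither above background, with 8.11, 8.26 and 7.98 in plasmablasts and 10.31 and 10.44 in naive B cells. Folds against arrays below background are lower bounds, measured to the lowest signal above background on those arrays. By this bound the dimmest Cxcr5 probe was at least 17.3-fold lower in plasma cells than in naive B cells, and it was 4.79-fold lower in plasmablasts. The 3 probes thus gave log2 differences of -2.26, -2.25 and -2.23 for plasmablasts against naive B cells. Plasma cells set against plasmablasts gave -2.35, -2.45 and -2.83, which ranked 33, 26 and 16 among the lowest of 10113 probes.

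Ccr7, the receptor for the T zone chemokines CCL19 and CCL21, had 5.63 and 5.82 in plasma cells, 6.87, 7.41 and 7.07 in plasmablasts, and 11.07 and 11.10 in naive B cells. Both LPS groups stood far below the naive B cell arrays, with the plasmablast arrays above background and the plasma cell arrays not (detection p 0.0840 and 0.0439). In plasma cells Ccr7 was at least 28.3-fold lower than in naive B cells (fitted log2 difference -5.36, -5.75 to -4.97, adjusted p = 7.35e-08). In plasmablasts it was 15.7-fold lower (log2 difference -3.97, -4.33 to -3.62, adjusted p = 1.70e-07), which ranked 65 among the lowest of all tested probes. Plasma cells were at least 1.81-fold below plasmablasts (adjusted p = 6.93e-05). On the authors' normalized values, which keep the background signal, the log2 differences of Ccr7 shrank to -3.67 and -3.08 against naive B cells and to -0.59 between plasma cells and plasmablasts.

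Gpr183 encodes EBI2, the receptor for oxysterols that moves B cells to the outer follicle. It had 8.50 and 8.34 in plasma cells, 9.91, 10.09 and 9.68 in plasmablasts, and 11.90 and 11.89 in naive B cells. All 7 arrays were above background and the 3 groups were well separated. Gpr183 was 11.1-fold lower in plasma cells (log2 difference -3.47, -3.80 to -3.15, adjusted p = 2.34e-07) and lower in plasmablasts by the same test (log2 difference -2.00, -2.29 to -1.71, adjusted p = 2.10e-06) than in naive B cells. Plasma cells were 2.78-fold below plasmablasts (-1.47, -1.77 to -1.18, adjusted p = 1.75e-05).

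Ccr6, the receptor for CCL20, was measured by a pair of probes that gave similar differences. The brighter had 9.16 and 9.52 in plasma cells, 10.19, 10.73 and 10.76 in plasmablasts, and 12.02 and 12.13 in naive B cells. The dimmer had 7.92 and 7.61 in plasma cells, 8.57, 9.41 and 9.02 in plasmablasts, and 10.69 and 10.53 in naive B cells. Neither probe showed overlap between groups, and plasmablast replicate 1 was the lowest of its group on both. Against naive B cells, Ccr6 was 6.66-fold (brighter probe, adjusted p = 7.17e-06) and 7.21-fold (dimmer probe, adjusted p = 1.52e-05) lower in plasma cells. In plasmablasts it was 2.86-fold (adjusted p = 1.16e-04) and 3.06-fold (adjusted p = 2.30e-04) lower than in naive B cells. Plasma cells were 2.32-fold and 2.35-fold below plasmablasts (adjusted p = 4.68e-04 and 0.00115).

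Cxcr4, the receptor for CXCL12 and the one tied to bone marrow homing, had the smallest fall of the 5. Its signal was 10.99 and 11 in plasma cells, 11.82, 11.82 and 11.97 in plasmablasts, and 12.88 and 12.69 in naive B cells. Every array was above background, and the groups formed 3 separate steps. Cxcr4 was 3.45-fold lower in plasma cells (log2 difference -1.79, -2.04 to -1.54, adjusted p = 2.16e-06) and 1.88-fold lower in plasmablasts (-0.91, -1.14 to -0.68, adjusted p = 5.42e-05) than in naive B cells. Plasma cells were 1.83-fold below plasmablasts (-0.87, -1.10 to -0.64, adjusted p = 8.24e-05). The direction seen here, lower Cxcr4 transcript in CD138+ cells at day 3, describes RNA and not receptor on the surface.

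Cxcr3, the receptor for the interferon-induced chemokines CXCL9, CXCL10 and CXCL11, ran the other way in plasmablasts. It had 6.12 and 5.72 in plasma cells, 8.08, 8.05 and 8.08 in plasmablasts, and 5.63 and 5.46 in naive B cells. Every plasmablast array was above background, and no array of the other populations was. The detection values were 0.0175 and 0.0677 in plasma cells and 0.107 and 0.124 in naive B cells. Cxcr3 lies on the X chromosome, and the naive B cell arrays differed from the rest in sex-linked transcripts, whose part in this difference cannot be told apart. Cxcr3 was at least 2.96-fold higher in plasmablasts than in naive B cells (fitted log2 difference 2.52, 2.23 to 2.82, adjusted p = 6.03e-07). In plasma cells it was at least 3.50-fold lower than in plasmablasts (fitted log2 difference -2.15, -2.45 to -1.86, adjusted p = 2.15e-06), which ranked 51 among the lowest of all tested probes.

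Plasma cells and naive B cells were both below background for Cxcr3, so no fold is given between them. Their fitted log2 difference of 0.37 had adjusted p = 0.0434, and that call was lost under 12 of 16 alternatives, with adjusted p between 0.00583 and 0.267. T cells also carry CXCR3. Of 9 tested T and NK cell markers, 7 were higher and 1 lower in plasmablasts than in naive B cells, and 5 were higher and 1 lower in plasma cells than in plasmablasts. Cd3g averaged 10.12 in plasma cells and 8.26 in plasmablasts, against 5.63 in naive B cells, and Cd3e averaged 7.94, 6.15 and 5.02 in the same order, above background in plasma cells only, while Cd4 and Cd8a were above background on no array. Cd8b1, a CD8 chain gene, averaged 8.02 ± 0.23 in plasma cells and 8.56 ± 0.30 in plasmablasts, against 6.11 ± 0.17 in naive B cells, and was highest in plasmablasts, as Cxcr3 was. Klrd1, an NK cell receptor gene, was highest in naive B cells, at 9.61 ± 0.09. The part of T and NK cells in the plasmablast signal was not tested.

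**Figure D2:**
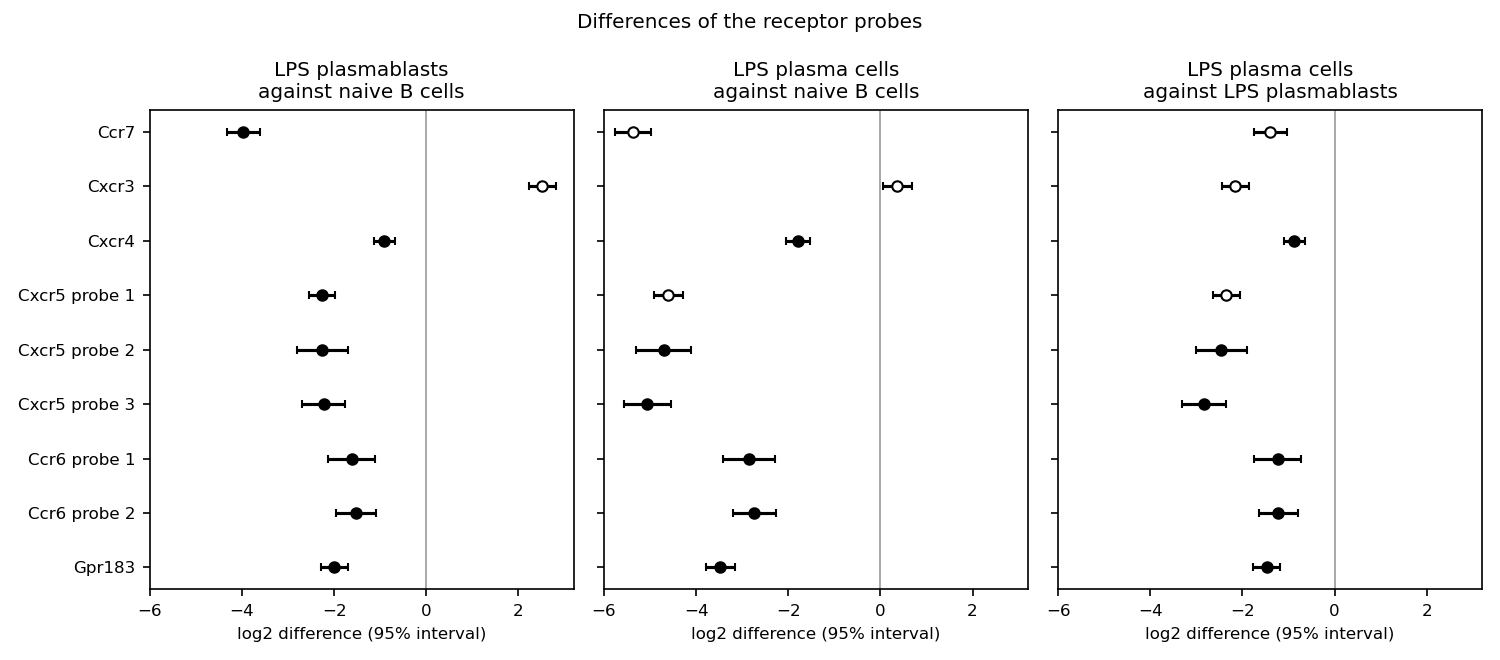
Fitted log2 differences of the 9 tested receptor probes with 95% intervals in the 3 comparisons, the first-named population minus the second. Open points involve a group in which every array was below background, so the fitted value there is not a bound. All intervals against naive B cells lie below 0 except those of Cxcr3, and all 9 intervals lie below 0 for plasma cells against plasmablasts.

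The remaining receptors gave no signal that could be compared. Ccr9, the gut homing receptor for CCL25, had detection p between 0.655 and 0.905 over the 7 arrays, and Ccr10, the receptor for CCL27 and CCL28 on mucosal plasma cells, between 0.165 and 0.630. S1pr1, the sphingosine 1-phosphate receptor for exit into blood, had detection p between 0.460 and 0.868, and Ccr2, the receptor for CCL2 on monocytes, between 0.355 and 0.912. Each was measured by a single probe, with scanner signals of 115.2 to 177.7 units in all. With no filter on dim probes none of the 4 was called in any comparison, with adjusted p from 0.528 to 0.955, in a fit that called 7654 to 8066 of 23978 probes. S1pr1 is known to be expressed by naive B cells, and the probe read background on both naive B cell arrays. Whether this probe reports the transcript was not tested. Ccr2 read background on the plasma cell arrays too, where Lyz2, a myeloid marker, averaged 15.33 ± 0.01.

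Against all tested probes, the receptors spread from the shoulder to the edge of the distribution. In plasma cells relative to naive B cells, Ccr7 ranked 22 among the lowest of 10113 probes, the 3 Cxcr5 probes 32, 42 and 47, Gpr183 113, the Ccr6 probes 199 and 213, and Cxcr4 549. The median log2 difference of the 9 receptor probes was -3.47 there, against -0.08 for all tested probes. Between plasma cells and plasmablasts it was -1.47 against -0.23, and for plasmablasts set against naive B cells it was -2.00 against 0. These comparisons share arrays and are not independent of each other. Each step of Cxcr5 was of similar size (4.76-fold and 5.48-fold on the brightest probe). For Ccr7 the difference between plasmablasts and naive B cells was the larger one, and the one between plasma cells and plasmablasts is limited by background.

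**Figure D3:**
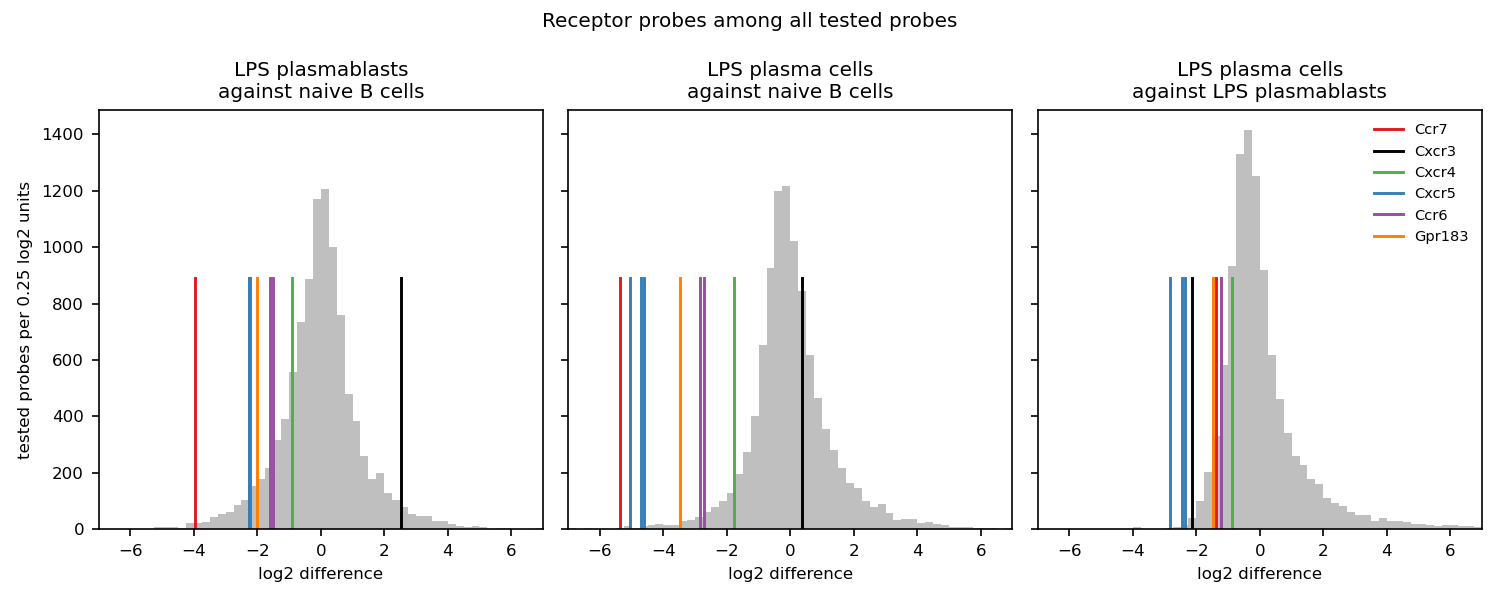
Distribution of log2 differences of all 10113 tested probes (grey, probes per bin of 0.25 log2 units) in the 3 comparisons, with the 9 receptor probes as coloured lines. Ccr7 and Cxcr5 lie in the left tail against naive B cells, Cxcr4 is the nearest to the bulk of the probes among the receptors that fell, and Cxcr3 lies far to the right only for plasmablasts against naive B cells.

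Levels of B lineage transcripts on the same arrays differed in size and direction. Fcer2a was at least 162-fold lower in plasma cells than in naive B cells, Cd22 at least 80.5-fold, Ms4a1 30.8-fold and Cd79a 7.31-fold. In plasmablasts they were 24.2-fold, 8.11-fold, 6.54-fold and 1.74-fold lower than in naive B cells. Of 13 tested sort and identity markers, 5 were lower and 6 higher in plasma cells than in naive B cells. Among all tested probes 37.4% were lower and 33.0% higher there. Cd79b averaged 13.14 ± 0.03 in plasma cells and 14.23 ± 0.02 in plasmablasts, against 15.14 ± 0.02 in naive B cells. Xbp1, the secretory cell factor, averaged 15.01 ± 0.08, 15.22 ± 0.06 and 11.97 ± 0.06 in the same order. Summed myeloid and T cell marker signal, given above, was highest on the plasma cell arrays. Single monocyte and macrophage markers did not all follow the sum. Of 12 tested, 7 were lower and 4 higher in plasma cells than in naive B cells (median -2.69, or -1.96 with bounds). All tested probes gave 37.4% and 33.0%. Lyz2 averaged 15.33 ± 0.01 in plasma cells and 12.06 ± 0.14 in naive B cells, and Vcam1 6.07 ± 0.10 and 12.95 ± 0.46. The part of other cells' RNA in the receptor differences was not tested.

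Promoter sequence is shown for the tested receptors that the RefSeq promoter table held, because the study's title concerns DNA methylation and the CpG content of these starts is the property such a mark acts on. The table matched 4 of the 6 tested genes with 5 start sites, each as 250 bases before to 50 after the annotated start (GRCm38.p6). Bases in capitals are CpG dinucleotides, and all sequences run 5′ to 3′ on the gene's strand. No start of Cxcr5 or Ccr7 was held. Of the receptors that fell, Cxcr4, Gpr183 and Ccr6 are given beside Cxcr3, which rose in plasmablasts. The upstream Ccr6 start is not printed.
Cxcr3, chrX:101734098-101734397, minus strand: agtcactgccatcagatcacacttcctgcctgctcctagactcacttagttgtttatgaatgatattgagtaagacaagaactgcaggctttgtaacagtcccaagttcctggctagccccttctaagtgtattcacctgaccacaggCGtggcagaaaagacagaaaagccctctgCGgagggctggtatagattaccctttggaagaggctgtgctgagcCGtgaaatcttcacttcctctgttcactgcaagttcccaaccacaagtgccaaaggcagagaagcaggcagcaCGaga
Cxcr4, chr1:128592250-128592549, minus strand: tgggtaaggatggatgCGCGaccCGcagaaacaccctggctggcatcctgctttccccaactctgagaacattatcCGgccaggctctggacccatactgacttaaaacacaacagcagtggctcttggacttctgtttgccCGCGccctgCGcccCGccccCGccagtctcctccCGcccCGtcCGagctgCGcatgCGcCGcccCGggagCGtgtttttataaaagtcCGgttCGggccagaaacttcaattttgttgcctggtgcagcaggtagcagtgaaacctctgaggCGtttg
Gpr183, chr14:121965144-121965443, minus strand: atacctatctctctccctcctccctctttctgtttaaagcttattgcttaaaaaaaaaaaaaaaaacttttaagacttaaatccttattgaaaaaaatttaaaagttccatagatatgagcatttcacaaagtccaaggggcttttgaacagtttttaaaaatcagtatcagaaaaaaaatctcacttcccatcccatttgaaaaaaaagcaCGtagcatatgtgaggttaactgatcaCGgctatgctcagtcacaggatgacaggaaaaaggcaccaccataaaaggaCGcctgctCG
Ccr6, downstream start, chr17:8242276-8242575, plus strand: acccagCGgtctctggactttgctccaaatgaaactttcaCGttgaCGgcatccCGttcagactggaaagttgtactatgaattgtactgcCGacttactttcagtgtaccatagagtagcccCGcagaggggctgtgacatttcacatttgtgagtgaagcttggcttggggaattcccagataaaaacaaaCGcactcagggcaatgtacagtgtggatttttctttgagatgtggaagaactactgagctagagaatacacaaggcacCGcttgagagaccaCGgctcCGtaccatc

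The Cxcr4 start stood apart in CpG content. It held 20 CpG in 300 bases, a number reached by 26.5% of the 32851 windows in the table, whose median was 7. The Cxcr3 and Gpr183 starts each held 4, the downstream Ccr6 start 10 and the upstream Ccr6 start 2. Methylation at these starts was not analysed here.

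A few short motifs, chosen after the sequences had been read, were searched on both strands of these windows. The T-box core TCACAC began 234 bases before the Cxcr3 start and occurred in 14.5% of all windows. T-bet, a T-box factor, is known to activate Cxcr3. The TATA core TATAAA lay 30 and 32 bases before the Cxcr4 start, as overlapping matches on opposite strands, and occurred in 13.6% of all windows. The KLF core CACCC began 219 bases before the Cxcr4 start and occurred in 57.5% of windows. These are matches of letters, and binding was not measured.

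Genes with the most similar pattern were found by the root mean square difference of centred log2 signals over the 7 arrays, among 7424 other genes. For Gpr183 they were H2-Eb1, an MHC class II chain gene, Ets1, a transcription factor gene, and Pkib (differences of 0.104, 0.152 and 0.177 log2 units). For Ccr6 they were H2-Aa, another class II chain gene, Kctd14 and Carmil2 (0.090, 0.136 and 0.154). For Cxcr5 they were Ephx1, H2-Ob and the adhesion receptor gene Cd2 (0.162, 0.163 and 0.208). For Ccr7 they were Tmem108, Slamf1 and Tbc1d10c (0.218, 0.227 and 0.308), and for Cxcr4 Helz2, Aasdh and Ears2 (0.074, 0.078 and 0.081). For Cxcr3 they were the condensin gene Ncapd2, Bard1, whose product pairs with BRCA1, and the centromere gene Cenpn (0.139, 0.139 and 0.174). Ncapd2, Bard1 and Cenpn had log2 differences of 2.33, 2.42 and 2.19 between plasmablasts and naive B cells, beside 2.52 for Cxcr3. With 3 groups and 7 arrays many genes share such a pattern, and the closeness is a description.

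Other chemoattractant receptors did not share one direction. Of 32 listed, 30 had a probe and 14 were tested. In plasmablasts 8 were lower and 2 higher than in naive B cells, with a median log2 difference of -1.45, or -1.03 with bounded differences at their limit, against -0.02 for all genes. Among all tested probes 36.5% were lower and 35.5% higher there. P2ry13, a nucleotide receptor gene, was at least 7.43-fold lower and Cnr2, the cannabinoid receptor gene of B cells, 9.53-fold lower. Ackr2, a chemokine scavenger gene, was 4.24-fold lower, and Ccr3 at least 1.86-fold lower. P2ry13 was not low in plasma cells: it averaged 10.14 ± 0.21 there and 9.54 ± 0.08 in naive B cells, at least 11.3-fold above plasmablasts. Of 12 tested monocyte and macrophage markers, 10 were also lower in plasmablasts than in naive B cells and 0 higher, and their part was not tested. In plasma cells 6 were lower and 8 higher than in naive B cells (median 0.88 against -0.08), beside 37.4% and 33.0% of all tested probes. Cx3cr1, the fractalkine receptor gene, averaged 12.55 ± 0.27 in plasma cells and 6.48 ± 0.37 in plasmablasts, against 6.28 ± 0.36 in naive B cells. Ltb4r1, the leukotriene B4 receptor gene, averaged 11.85 ± 0.06, 5.68 ± 0.16 and 5.68 ± 0.05, and Fpr2, a formyl peptide receptor gene, 14.38 ± 0.07, 8.37 ± 0.56 and 9.22 ± 0.70 in the same order. These 3 receptors are known from myeloid cells, and they rose on the plasma cell arrays, where 10 of 12 tested monocyte and macrophage markers were higher than in plasmablasts and 0 lower. Cxcr2, the neutrophil chemokine receptor gene, was above background on no array. Their cell of origin was not tested.

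Related sphingosine 1-phosphate receptors, named here after their values were seen, were measured where S1pr1 was not. S1pr4 averaged 6.83 ± 0.11 in plasma cells and 7.49 ± 0.21 in plasmablasts, against 9.22 ± 0.43 in naive B cells, 5.24-fold and 3.32-fold lower (adjusted p = 1.68e-05 and 5.61e-05). S1pr2, which confines germinal center B cells, averaged 7.77 ± 0.17 and 7.36 ± 0.09, against 6.38 ± 0.08, at least 2.39-fold and at least 1.80-fold higher (adjusted p = 1.55e-05 and 6.12e-05). S1pr5 was 11.6-fold higher in plasma cells than in naive B cells, of which 1 of 2 arrays was above background, and at least 9.56-fold higher than in plasmablasts. S1pr5 is known from NK cells and patrolling monocytes, and its source here was not tested. Among 12 tested genes of sphingosine 1-phosphate and oxysterol handling, 7 were lower and 1 higher in plasmablasts than in naive B cells (median -0.78 against -0.02), and 9 were higher and 1 lower in plasma cells than in plasmablasts (median 1.18, or 0.70 with bounds, against -0.22). Over all tested probes 36.5% were lower and 35.5% higher in the first of these comparisons, and 27.9% higher and 46.3% lower in the second. In the first comparison 10 of 12 tested monocyte and macrophage markers were also lower and 0 higher (median -4.20, or -2.99 with bounds). In the second comparison 10 of the 12 were higher (median 2.82), and their part in either was not tested.

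Within that list, Klf2, the factor that drives S1pr1 transcription, averaged 13.25 ± 0.12 in plasma cells and 10.95 ± 0.29 in plasmablasts, against 14.43 ± 0.04 in naive B cells. It was 2.26-fold and 11.2-fold lower than in naive B cells, and 4.93-fold higher in plasma cells than in plasmablasts (adjusted p = 5.25e-06). Cd69, whose product pulls S1PR1 off the surface, was 17.4-fold lower in plasma cells and 15.2-fold lower in plasmablasts than in naive B cells. The oxysterol enzyme genes Cyp7b1 and Hsd3b7, which make and remove the Gpr183 ligand, were at least 2.71-fold and 7.10-fold higher in plasma cells than in plasmablasts. Apom, which encodes a plasma carrier of sphingosine 1-phosphate, was at least 2.91-fold higher in plasma cells than in plasmablasts. Plpp3, a phosphatase gene, was at least 9.93-fold lower in plasma cells and at least 7.60-fold lower in plasmablasts than in naive B cells, and Sgpp1, another phosphatase gene, was 3.15-fold lower in plasmablasts. Ch25h, which starts that ligand's synthesis, was above background on no array.

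Ligand genes of the receptors were mostly below background. Of 17 listed ligand genes, all with a probe, 4 were tested. Cxcl13, Cxcl12, Ccl19, Ccl20, Ccl21a, Ccl2 and Ccl28 were above background on no array. Cxcl9, a ligand of CXCR3, averaged 8.64 ± 0.54 in plasma cells and 5.03 ± 0.15 in plasmablasts, against 9.16 ± 0.12 in naive B cells. The plasmablast level was below background and at least 5.72-fold below that of naive B cells (adjusted p = 5.61e-07). Cxcr3 was detected in plasmablasts only. Cxcl10 was at least 1.36-fold higher in plasma cells than in plasmablasts (adjusted p = 8.24e-04). Of 12 tested monocyte and macrophage markers, 10 were lower and 0 higher in plasmablasts than in naive B cells, beside 36.5% and 35.5% of all tested probes. In plasma cells 10 were higher and 0 lower than in plasmablasts, beside 27.9% and 46.3%. The part of such cells in the Cxcl9 and Cxcl10 signals was not tested. Ccl27a, a CCR10 ligand, was 2.13-fold lower in plasma cells and 1.42-fold lower in plasmablasts than in naive B cells. Ccl25, the CCR9 ligand, averaged 6.80 ± 0.21, 7.17 ± 0.17 and 6.88 ± 0.03 in plasma cells, plasmablasts and naive B cells.

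Most tested genes that couple these receptors to movement were lower in plasmablasts than in naive B cells. Of 29 tested genes of Gi coupling and migration, 21 were lower and 4 higher in plasmablasts than in naive B cells (median -0.98, or -0.71 with bounds, against -0.02 for all genes). In plasma cells 9 were lower and 14 higher than in naive B cells (median 0.14 against -0.08), and 23 were higher and 4 lower than in plasmablasts (median 0.97, or 0.73 with bounds, against -0.22). The shares of all tested probes were 36.5% lower and 35.5% higher for plasmablasts against naive B cells. They were 37.4% lower and 33.0% higher for plasma cells against naive B cells, and 27.9% higher and 46.3% lower against plasmablasts. In plasmablasts against naive B cells, 10 of 12 tested monocyte and macrophage markers were also lower and 0 higher (median -4.20, or -2.99 with bounds). All 6 tested red cell and platelet markers were lower there too. The part of these cells in the lower migration genes was not tested. Gnai2, the main Gi subunit of lymphocytes, averaged 13.54 ± 0.04 in plasma cells and 12.46 ± 0.07 in plasmablasts, against 13.52 ± 0.06 in naive B cells. It was 2.10-fold lower in plasmablasts than in naive B cells (adjusted p = 9.55e-06), and its log2 difference between plasma cells and naive B cells was 0.02 (adjusted p = 0.860). Gnai2 is named here as the subunit the receptors signal through and was chosen after its values were seen.

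Within that list, Rgs1, a GTPase activator that dampens CXCR4 and CXCR5 signals, averaged 7.02 ± 0.14 in plasma cells and 5.33 ± 0.24 in plasmablasts, against 12.34 ± 0.13 in naive B cells. It was 39.7-fold lower in plasma cells and at least 51.5-fold lower in plasmablasts than in naive B cells (adjusted p = 6.17e-08 and 1.80e-08). Rgs2, of the same family, was 1.78-fold and at least 1.98-fold lower. Grk6, a kinase that turns receptors off, was 2.54-fold lower in plasma cells and 4.08-fold lower in plasmablasts, and Gnaq, the Gq subunit gene, was 1.90-fold and 4.17-fold higher. Rgs3, Arrb1, which encodes a beta-arrestin, Grk5 and the Rac activator gene Prex1 were higher in plasma cells than in plasmablasts, by 10.9-fold, at least 7.28-fold, at least 6.18-fold and 5.34-fold. Those are the arrays with the high myeloid marker signal given above, whose part in these rises was not tested.

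**Figure D4:**
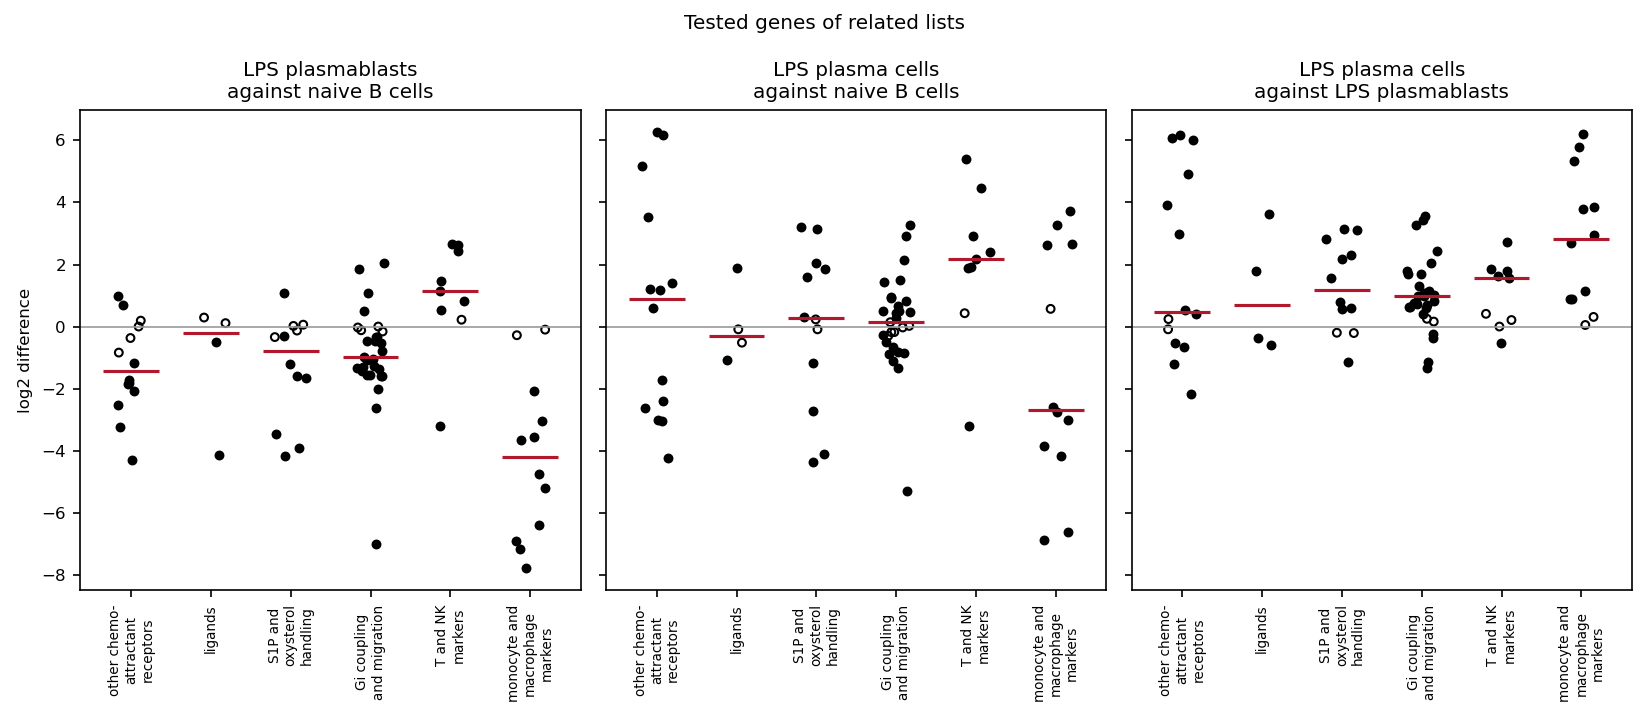
Log2 differences of tested genes in 4 related gene lists and 2 marker lists in the 3 comparisons, the first-named population minus the second. Filled points passed adjusted p under 0.05, open points did not, and red bars are list medians: the Gi coupling and migration list has a median of -0.98 in plasmablasts against naive B cells and 0.97 in plasma cells against plasmablasts, beside medians of -4.20 and 2.82 for the monocyte and macrophage markers.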

How the data were processed

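The deposited scanner table held an intensity per probe and array in arbitrary fluorescence units, not normalized between arrays, and a detection p-value, per the file headers. The submitters' processing notes name GenomeStudio 2011.1. The authors' own normalized intensity, within 0.0119 log2 units of a quantile normalization of the scanner values, served as an alternative. In R 4.3.3 with limma 3.58.1, background was estimated from the detection p-values (normexp, offset 16), and arrays were quantile normalized and put on the log2 scale. Between 8817 and 9930 of 25697 probes were above background per array (detection p under 0.01), and the small number of arrays limits the precision.

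Of 23978 probes with 1 gene name (1719 had none), updated through RefSeq (GRCm38.p6), 10113 were above background on at least 2 arrays. These were fitted per probe in limma with 1 mean per population (4 residual and 4 prior degrees of freedom). The fit was tested on simulated data. Gene lists used the probe with the highest mean per gene. Named genes were all members, up to 4 largest called genes per list and comparison, the ligands, and the 3 most similar patterns per member. Receptors and lists were chosen with earlier results of these data known. Cxcr2, S1pr2, S1pr4, S1pr5, Ch25h, Gnai2 and the identity markers Sdc1, Spn, Ptprc, Irf4, Pax5, Cd79b and Xbp1 lie outside that rule and were named after their values were seen. The T cell markers Cd4 and Cd8a, above background on no array, also lie outside that rule.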

Additional observations from a re-analysis of the deposited data

How the results depend on the processing

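Over 16 alternatives (offset 50, cyclic loess, 75th percentile scaling, the authors' values, no filter, detection p under 0.05, 1 probe per gene, only the groups compared, a replicate block and leaving out each array), 411 of 423 recomputed receptor differences kept their direction and their side of the threshold, and 0 reversed. The other 12 were all Cxcr3 between plasma cells and naive B cells, where both groups were below background. They included leaving out naive B cell replicate 2 (adjusted p = 0.200) and plasma cell replicate 1 (adjusted p = 0.267), and the log2 difference ran from 0.14 to 0.55. Cyclic loess moved the median of all probes by 0.18 (plasma cells against naive B cells) and 0.22 (against plasmablasts). The authors' values, which keep background, shrank differences of dim probes: Cxcr3 in plasmablasts against naive B cells to 1.22 (1.91 with offset 50), and the dimmest Cxcr5 probe in plasma cells against naive B cells to -2.99 (-3.94 with offset 50). Deviations of same-numbered arrays from their group means had correlations from -0.04 to 0.16. Between plasma cells and plasmablasts these were 0.16 and 0.08, and arrays of unlike number gave -0.16 to 0.08. In a group of 2 arrays the deviations mirror each other, so this check cannot decide whether the numbers pair the arrays. With the replicate block 9 of 9 receptor probes were called in each comparison, and 7085, 7108 and 7281 probes over the array. Leaving out single arrays gave 6057 to 7315 called probes. Arrays below background give only a limit, for Ccr7, Cxcr3 and the dimmest Cxcr5 probe in plasma cells and Cxcr3 in naive B cells.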
